A study of Mus musculus with 12 samples.

Results

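The genes described here are 10 that encode parts of the inflammasome and its products, taken by symbol from the 35976 genes of the count table: Casp1, Casp4, Casp12, Nlrp3, Nlrp1a, Pycard, Gsdmd, Il1b, Il18 and Casp8. They were measured in mouse retinas by QuantSeq, which reads the 3′ ends of polyadenylated transcripts, in 12 libraries that fall into 4 groups of 3. In the group labelled WT normoxia, C57BL/6 pups stayed in room air and retinas were taken at postnatal day 15. In the group labelled WT OIR (oxygen-induced retinopathy), C57BL/6 pups spent postnatal days 7 to 12 in 75% oxygen, returned to room air and gave retinas 3 days later, at postnatal day 15. The groups labelled Casp1 KO normoxia and Casp1 KO OIR are described in the labels as retinas of caspase-1 knockout mice in normoxia and in hypoxia 3 days after OIR, a description that the Casp1 reads below go against. Their age, their oxygen level, the strain that carries the knockout and the part of Casp1 that was deleted are not given in the sources used here. OIR is a model in which high oxygen stops retinal vessel growth and the return to room air leaves the unperfused retina hypoxic.

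Inflammasomes are protein platforms on which a sensor such as NLRP3 or NLRP1 recruits the adaptor ASC, the product of Pycard, and through it caspase-1. Active caspase-1 cuts the precursors of IL-1β and IL-18 into secreted cytokines and cuts gasdermin D, whose fragment forms pores in the membrane and ends in pyroptosis, a lytic form of cell death. Mouse caspase-11, the product of Casp4, binds bacterial lipopolysaccharide in the cytosol and also cuts gasdermin D, caspase-8 is the initiator caspase of death receptors, and in the retina the pathway has been studied mainly in microglia, Müller glia and the pigment epithelium.

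Casp1, Casp4 and Casp12 lie next to each other in the same orientation on mouse chromosome 9, in GENCODE vM21 on the GRCm38 build. Casp1 runs from 5298517 to 5307265 with 10 exons in its longest annotated form, Casp4 from 5308828 to 5336783 and Casp12 from 5345430 to 5373032, all on the plus strand. Casp4 starts 1562 bases after the end of Casp1, and Casp12 starts 8646 bases after the end of Casp4. The other members lie elsewhere: Casp8 on chromosome 1 from 58795374 to 58847503, Il1b on chromosome 2 from 129364570 to 129371139, Pycard on chromosome 7 from 127989708 to 127993867, Il18 on chromosome 9 from 50554827 to 50581840, Nlrp3 on chromosome 11 from 59541568 to 59566956, Nlrp1a on chromosome 11 from 71092236 to 71144704, and Gsdmd on chromosome 15 from 75862327 to 75867408. All 10 are annotated as protein coding. The count table names genes by symbol only, and the strand setting of the counting is not stated, so reads of Casp8 cannot be told from those of Gm37760, which overlaps it on the same strand, and the reads of Pycard, Il18 and Il1b may include some from genes on the opposite strand (Gm45205, Bco2 and Tex12, and Il1bos).

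The promoters of these 3 adjacent caspase genes are shown because the genes share a short stretch of chromosome and yet differed in which libraries gave reads. Each is the RefSeq sequence of 250 bases before and 50 bases from the start of a transcript on GRCm38.p6, plus strand, 5′ to 3′: chr9:5298267-5298566 for Casp1, chr9:5308599-5308898 for Casp4 (the first of 2 listed) and chr9:5345226-5345525 for Casp12. Capitals mark the letters that matched one of 5 searched motifs.
Casp1: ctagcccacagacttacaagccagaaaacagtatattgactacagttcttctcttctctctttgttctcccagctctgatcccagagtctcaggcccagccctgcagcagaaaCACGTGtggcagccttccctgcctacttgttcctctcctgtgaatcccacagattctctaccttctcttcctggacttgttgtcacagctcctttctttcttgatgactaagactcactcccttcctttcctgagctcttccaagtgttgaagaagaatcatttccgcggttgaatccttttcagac
Casp4: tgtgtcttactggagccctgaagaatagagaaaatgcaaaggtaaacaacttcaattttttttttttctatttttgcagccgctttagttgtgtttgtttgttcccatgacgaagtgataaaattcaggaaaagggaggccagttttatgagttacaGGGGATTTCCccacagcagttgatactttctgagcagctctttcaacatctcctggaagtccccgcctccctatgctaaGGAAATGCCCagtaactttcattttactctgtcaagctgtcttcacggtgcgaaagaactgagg
Casp12: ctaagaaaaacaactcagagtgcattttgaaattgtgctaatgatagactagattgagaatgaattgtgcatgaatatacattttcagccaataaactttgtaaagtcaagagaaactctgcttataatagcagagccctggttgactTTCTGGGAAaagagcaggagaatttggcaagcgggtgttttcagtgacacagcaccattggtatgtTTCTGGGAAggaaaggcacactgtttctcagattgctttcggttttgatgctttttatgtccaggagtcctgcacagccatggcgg

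The motifs were searched on both strands: the interferon-stimulated element (GAAA, any 2 bases, GAAA), the STAT site TTCNNNGAA, an NF-kB site (GGG, any 2 bases, TTTCC), the AP-1 site TGANTCA and the core ACGTG to which hypoxia-inducible factors bind. In Casp1 the capitals are the palindrome CACGTG, which gives a match to ACGTG on each strand, beginning 137 and 136 bases before the start site. In Casp4 they are 2 NF-kB matches, 93 and 14 bases before the start, and in Casp12 they are the same STAT letters, TTCTGGGAA, at 102 and 36 bases before the start. Of 32851 RefSeq promoters of the same length, 19.6% held ACGTG, 1.63% the NF-kB letters, 8.3% the STAT letters, 3.44% the interferon-stimulated element and 7.81% the AP-1 letters. RefSeq promoters were matched for 9 of the 10 genes, all but Gsdmd. Among the other 6 with a promoter, 1 Nlrp3 promoter held ACGTG 63 bases before its start, and the promoters of Casp8, Pycard, Il18, Il1b and Nlrp1a matched none of the 5 motifs. These are matches of letters and not sites of measured binding.

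Most of these genes gave few reads. Of the 10, 8 had more than 3 reads in at least 1 library, 2 (Pycard and Il18) had a read in each of the 12 libraries, and 1 (Il18) had more than 3 in each. Gsdmd had no library above 3 reads, and Nlrp1a had no read at all. Total counts were 3391203 to 5657873 in 11 libraries and 22815830 in WT normoxia replicate 2, so that the 3 reads which a count of 0 allows equal between 0.131 and 0.885 CPM, the unit of level used here, in which counts are scaled to a common library size. That deepest library listed 17975 genes with a read, against 17111 to 18937 in the others, and only 312 genes with exactly 1 read, against 664 to 1129. Without WT OIR replicate 3, the number of genes called between the labelled genotypes in OIR rose from 131 to 815, and Casp1 is therefore also given without either library. Rod photoreceptor markers, the defining genes of the main retinal cell type, were present in all groups, with 7 of 7 markers read and a summed level of at least 41750 CPM. Reads carry no molecular identifiers, so limits and intervals of reads cover counting error only, and since the sources do not say whether libraries came from separate animals, p-values measure the spread between these libraries.

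Casp1, the targeted gene, had its reads in the libraries labelled Casp1 KO and hardly any in those labelled WT. This is the opposite of a loss of Casp1 reads under the Casp1 KO label. In WT normoxia replicates 1 to 3 it had 2, 0 and 1 reads (0.355, 0 and 0.217 CPM). In WT OIR it had 0, 1 and 3 reads (0, 0.184 and 0.545 CPM). In Casp1 KO normoxia it had 45, 14 and 10 reads (8.20, 4.07 and 2.42 CPM), and in Casp1 KO OIR 22, 19 and 16 reads (4.89, 4.16 and 3.29 CPM). The highest library labelled WT was below the lowest labelled Casp1 KO in normoxia, in OIR and over both, and no library labelled WT exceeded 3 reads. QuantSeq tags come from the 3′ end, so a tag outside the deleted part of the gene would check nothing, and these reads show neither a protein nor an intact transcript. Whether labels were exchanged between the genotypes, or tags came from outside the deleted part, was not tested. The cause of the few reads under the WT label was not tested either. The libraries are therefore named by their labels throughout, and a direction between genotypes is a direction between labels.

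**Figure D1:**
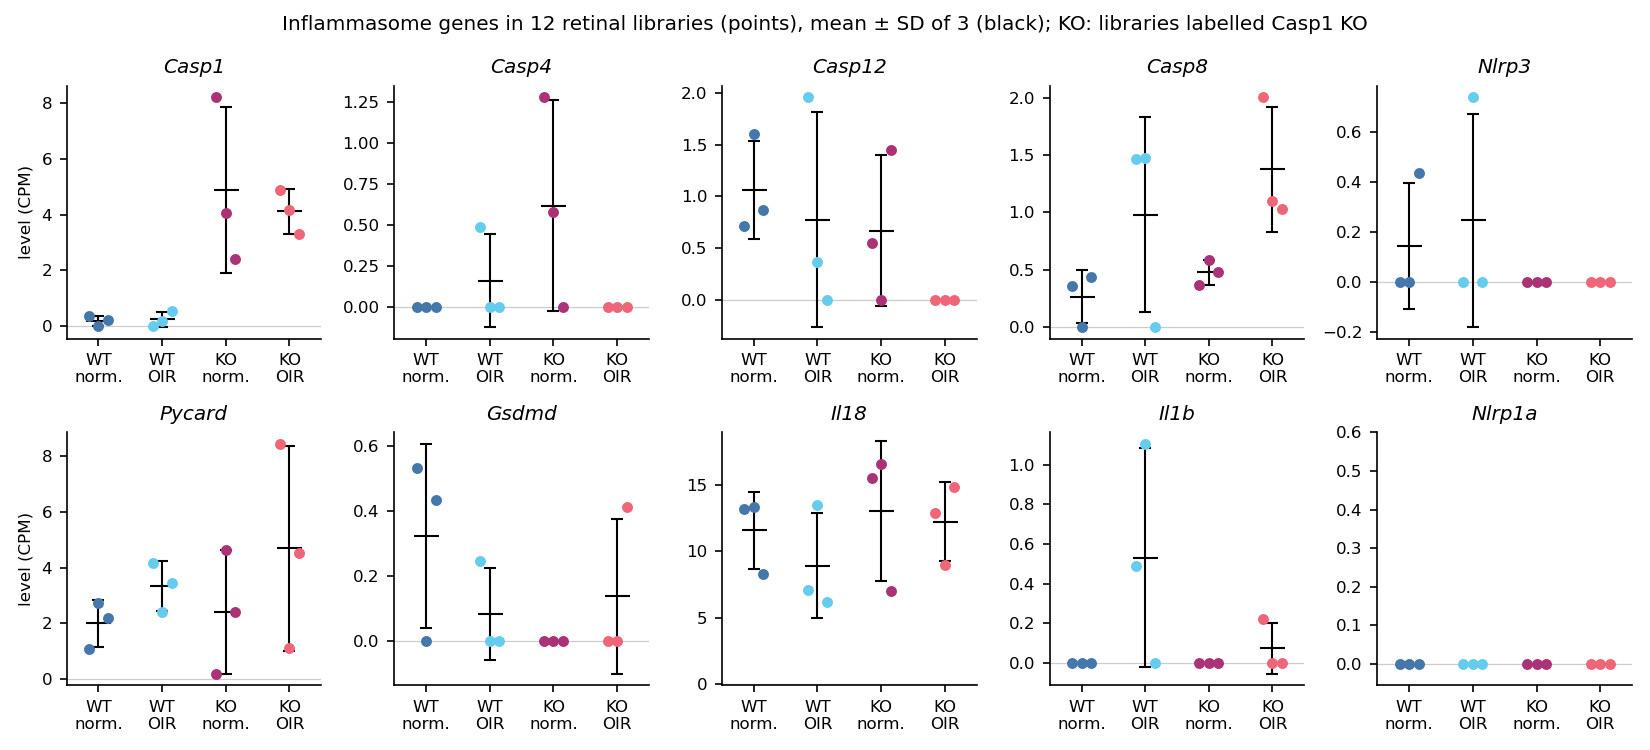
Level of each of the 10 genes in CPM (vertical axis, a separate scale for each gene) in the 12 libraries by group, with points for libraries and black bars for the mean ± SD of 3 libraries. Casp1 sits between 2.42 and 8.20 CPM in the 6 libraries labelled Casp1 KO (KO on the axis) and at or below 0.545 CPM in the 6 labelled WT, while Nlrp1a is at 0 in all 12.

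Over both conditions, Casp1 averaged 4.51 ± 2.0 CPM (SD, n = 6) in the libraries labelled Casp1 KO and 0.217 ± 0.211 CPM (SD, n = 6) in those labelled WT. The difference was 4.29 CPM (two-sided exact permutation test, p = 0.002165, the smallest that 924 assignments of 6 against 6 allow). Pooled over libraries these were 126 reads against 7, a ratio of 32 after scaling to total counts, with a 95% counting interval of 15.1 to 81.3. WT normoxia replicate 2, the deepest library, held no Casp1 read, and without it the ratio was 16.8 (7.93 to 42.7), while without WT OIR replicate 3 it was 49.5 (18.9 to 184.4). Thinning WT normoxia replicate 2 at random to about the depth of WT normoxia replicate 1 could not change its 0 Casp1 reads, and so checks nothing here.

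By edgeR's quasi-likelihood test with Benjamini-Hochberg adjustment, Casp1 passed an adjusted p of 0.05 between the labels in both conditions, and it was the only one of the 10 genes to pass in any comparison. In normoxia, the libraries labelled Casp1 KO were higher than those labelled WT with adjusted p = 0.000458, where 1.04% of 22480 genes passed in either direction and 0.476% as higher. The pooled reads were 69 against 3, a ratio of 58.3 (19.1 to 289.4). That ratio was 18.1 (5.93 to 89.7) without WT normoxia replicate 2, 145.0 (25.2 to 5809) without WT normoxia replicate 1, which held 2 of the 3 WT reads, and 35.1 (10.7 to 182.4) without Casp1 KO normoxia replicate 1. Leaving out Casp1 KO normoxia replicate 1, which held 45 of the 69 reads, gave adjusted p = 0.326 by the same quasi-likelihood fit, and leaving out WT normoxia replicate 2 gave 0.0071. In OIR the adjusted p was 0.0317, where 0.575% of 22774 genes passed and 0.263% as higher, with 57 reads against 4, a ratio of 15.3 (5.66 to 58.1), and 38.1 (6.57 to 1531) without WT OIR replicate 3, which held 3 of the 4 WT reads. That call did not hold in 8 of the 15 alternatives that gave an adjusted p, whose values ran from 0.00257 (WT OIR replicate 3 left out) to 0.199 (WT OIR replicate 2 left out). Over both conditions the quasi-likelihood fit of the 12 libraries gave adjusted p = 2.80e-06 for Casp1, which ranked 13 by p among 24484 genes, of which 0.335% passed and 0.159% as higher. Groups that did not overlap were found for 12.4% of genes between labels in normoxia, 11.9% in OIR and 0.339% over both conditions, and in each case Casp1 was the 1 member among them.

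Casp1 did not pass between OIR and normoxia. Ordered by mean level, Casp1 KO normoxia came first at 4.90 ± 2.98 CPM (SD, n = 3), then Casp1 KO OIR at 4.11 ± 0.801 CPM, WT OIR at 0.243 ± 0.277 CPM and WT normoxia at 0.191 ± 0.179 CPM. The first pair differed by less than their spread, with a log2 fold change of -0.26 (SE 0.53) for OIR against normoxia and adjusted p = 0.853 by edgeR's quasi-likelihood test, where 4.64% of genes passed and 2.61% as higher. Without Casp1 KO normoxia replicate 1 that log2 fold change was 0.36. No fold is given between WT OIR and WT normoxia, since neither group had a library above 3 reads, and the interaction of OIR and genotype had adjusted p = 0.957.

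Casp4, which encodes caspase-11, the other caspase of this cluster that cuts gasdermin D, had 11 reads in all. In Casp1 KO normoxia it had 7, 2 and 0 reads, in WT OIR 2, 0 and 0, and in WT normoxia and Casp1 KO OIR none. Its reads were thus in 3 libraries, and 9 of the 11 were in Casp1 KO normoxia. In normoxia there were 9 reads labelled Casp1 KO against 0 labelled WT. With the 3 reads that a count of 0 allows set over the WT group, the bound was 7.60-fold. It takes the 9 reads as exact and is no lower confidence limit. The bound was 2.36-fold without WT normoxia replicate 2, and none could be set without Casp1 KO normoxia replicate 1, which held 7 of the 9 reads. The groups overlapped, and the adjusted p was 0.609 by edgeR's quasi-likelihood test. Over both conditions the ratio of 9 to 2 reads was 8.01 (1.66 to 76.2), or 4.21 (0.870 to 40) without WT normoxia replicate 2, with adjusted p = 0.939 by the same test.

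Casp12, a caspase of the same cluster that has been tied to stress of the endoplasmic reticulum, had most of its reads under the WT label. It had 4, 36 and 4 reads in WT normoxia (0.710, 1.60 and 0.870 CPM), 8, 2 and 0 in WT OIR, 3, 0 and 6 in Casp1 KO normoxia, and 0 in each Casp1 KO OIR library. WT normoxia was the only group in which each of the 3 libraries had a read, and the 36 reads are in the deepest library, so that the other 5 libraries labelled WT held 18. OIR held 10 reads against 53 in normoxia, a pooled ratio of 0.301 (0.137 to 0.598), and the libraries labelled Casp1 KO held 9 against 54 labelled WT, a ratio of 0.297 (0.129 to 0.606). Without WT normoxia replicate 2 these ratios were 0.474 (0.194 to 1.10) and 0.467 (0.185 to 1.10), and each interval then included 1. Without WT OIR replicate 1 the OIR ratio was 0.0700 (0.00827 to 0.266), and without Casp1 KO normoxia replicate 3 the label ratio was 0.117 (0.0234 to 0.360). Neither passed over the spread between libraries: the log2 fold change was -1.81 (SE 1.21) for OIR and -1.99 (SE 1.22) for the label, with adjusted p of 0.526 and 0.759 by edgeR's quasi-likelihood test, where 4.89% of genes passed for OIR and 2.32% as higher. Within OIR, Casp12 had 0 reads labelled Casp1 KO against 10 labelled WT, with adjusted p = 0.615 by the same test. With 3 reads set for the 0 and the 10 taken as exact, the bound was 3.10-fold lower. The bound was 4.99-fold without WT OIR replicate 3 and 2.02-fold without Casp1 KO OIR replicate 3, and none could be set without WT OIR replicate 1, which held 8 of the 10 reads. By label, raw counts were 126 to 7 for Casp1, 9 to 2 for Casp4 and 9 to 54 for Casp12, Casp1 KO label first. The total reads behind them were 26985676 and 48035066, and WT normoxia replicate 2 held 36 of the 54 Casp12 reads. Of these 3 adjacent genes, only Casp1 passed between labels.

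**Figure D2:**
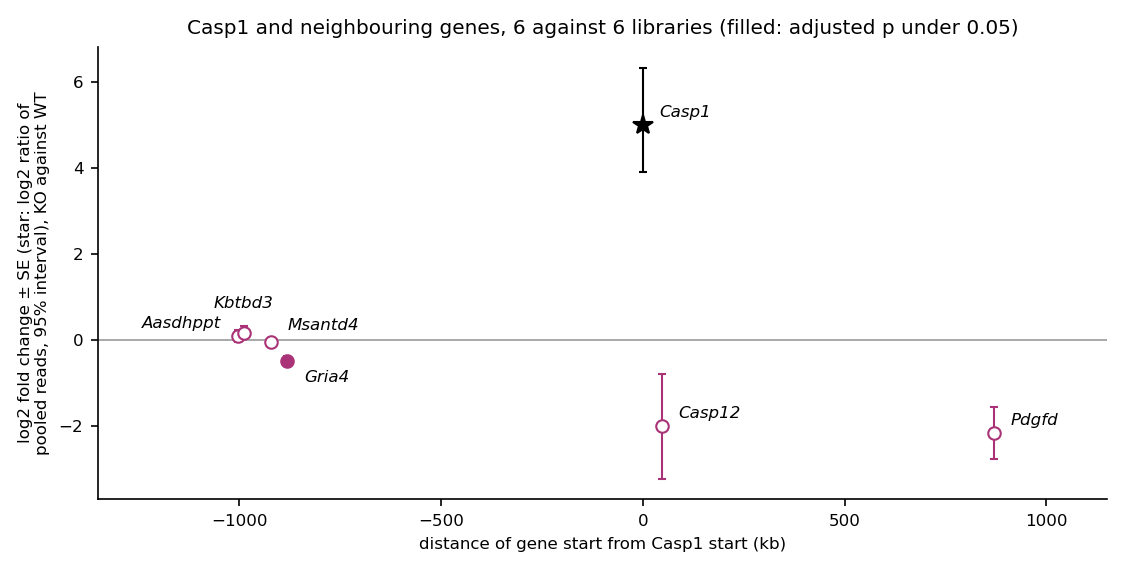
Log2 fold change ± SE between the 6 libraries labelled Casp1 KO and the 6 labelled WT (vertical axis) against the distance of each gene's lowest coordinate, on either strand, from that of Casp1 in kb (horizontal axis), for the neighbours in the count table with at least 30 reads, filled where the adjusted p was under 0.05, with a star for Casp1 as the log2 ratio of pooled reads and its 95% counting interval. Casp1 is high at 5.0 (3.92 to 6.35), Gria4 is slightly below 0 at -0.47 and filled, and Casp12 and Pdgfd are low with wide bars and not filled.

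Within 1000 kb on either side of Casp1, or overlapping that window, 17 genes are annotated with Casp1 itself, 9 of them in the count table. Of these 9, 2 passed between labels over both conditions, Casp1 and Gria4, as the plot against distance shows, beside 0.335% of all genes. Gria4 encodes an AMPA-type glutamate receptor subunit and lies on the minus strand, with its lowest coordinate, its 3′ end, at -880.6 kb from the start of Casp1. It was lower in the libraries labelled Casp1 KO, with a log2 fold change of -0.47 (SE 0.11) and adjusted p = 0.0143 by edgeR's quasi-likelihood test. In normoxia its log2 fold change was -0.57 (SE 0.13) with adjusted p = 0.00217, and in OIR it was -0.37 (SE 0.17) with adjusted p = 0.511. Pdgfd did not pass over both conditions, with a log2 fold change of -2.15 (SE 0.61) and adjusted p = 0.0938 by the same test.

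The sensors gave almost nothing. Nlrp3, the sensor that responds to potassium efflux and many other triggers, had 2 reads in WT normoxia replicate 3, 4 in WT OIR replicate 2 and none in the other 10 libraries. All 6 of its reads were therefore in libraries labelled WT. With 3 reads allowed for the 0 labelled Casp1 KO, the bound was 1.12-fold lower there (adjusted p = 0.759 by edgeR's quasi-likelihood test). The bound was 2.14-fold without WT normoxia replicate 2, and none could be set without WT OIR replicate 2. It did not hold without WT normoxia replicate 3 (0.829) or without any single Casp1 KO library (0.893 to 0.982), so a lower level was not shown. Nlrp1a, which encodes a mouse sensor of the NLRP1 family, had 0 reads of 75020742 over the 12 libraries, which allows up to 0.0400 CPM. A transcript below these limits could not be detected at this depth.

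Pycard, which encodes the adaptor ASC, was read in each library but varied widely within groups. It had 6, 61 and 10 reads in WT normoxia (1.07, 2.72 and 2.17 CPM), 17, 13 and 19 in WT OIR (4.16, 2.39 and 3.45 CPM), 1, 16 and 10 in Casp1 KO normoxia (0.182, 4.65 and 2.42 CPM) and 38, 5 and 22 in Casp1 KO OIR (8.45, 1.09 and 4.53 CPM). The OIR and normoxia libraries overlapped under both labels. Over both labels, OIR averaged 4.01 ± 2.51 CPM (SD, n = 6) and normoxia 2.20 ± 1.53 CPM (SD, n = 6), a log2 fold change of 0.85 (SE 0.50) with adjusted p = 0.460 by edgeR's quasi-likelihood test. The pooled reads were 114 against 104, a ratio of 1.75 (1.33 to 2.30), or 1.38 (1.01 to 1.88) without Casp1 KO OIR replicate 1. The difference did not pass over the spread between libraries. Between the labels over both conditions the log2 fold change was 0.35 (SE 0.50), adjusted p = 0.885.

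Gsdmd, which encodes the pore-forming substrate gasdermin D, had 8 reads in all. These were 3, 0 and 2 in WT normoxia, 1, 0 and 0 in WT OIR, and 0, 0 and 2 in Casp1 KO OIR, with none in Casp1 KO normoxia. With no library above 3 reads, no fold is given in any comparison.

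Of the cytokine substrates, Il1b had reads only in OIR. It had 2, 6 and 0 reads in WT OIR, 1, 0 and 0 in Casp1 KO OIR, and none in the 6 normoxia libraries. Over both labels the 9 reads against 0 amount to at least 4.79-fold higher in OIR, with adjusted p = 0.312 by edgeR's quasi-likelihood test. The bound was 2.42-fold without WT normoxia replicate 2. Of the 9 reads, 6 were in 1 library, WT OIR replicate 2, without which no bound could be set, and the difference did not pass over the spread between libraries.

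Il18 was the one member with more than 3 reads in each library. Its levels were 13.1, 13.3 and 8.26 CPM in WT normoxia, 7.10, 13.4 and 6.18 CPM in WT OIR, 15.5, 16.6 and 7.0 CPM in Casp1 KO normoxia and 12.9, 8.98 and 14.8 CPM in Casp1 KO OIR. All 4 groups overlapped, with no library beyond 16.6 CPM or below 6.18 CPM. OIR averaged 10.6 ± 3.62 CPM (SD, n = 6) and normoxia 12.3 ± 3.86 CPM (SD, n = 6), a log2 fold change of -0.24 (SE 0.24) with adjusted p = 0.685 by edgeR's quasi-likelihood test. The ratio of pooled reads was 0.842 (0.731 to 0.968), and 0.875 (0.742 to 1.03) without WT normoxia replicate 2. The labelled genotypes differed by a log2 fold change of 0.30 (SE 0.24) over both conditions, adjusted p = 0.775.

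Casp8, whose product starts death-receptor apoptosis and can also cut IL-1β and gasdermin D, had more reads in OIR under both labels. It had 2, 0 and 2 reads in WT normoxia (0.355, 0 and 0.435 CPM) and 6, 8 and 0 in WT OIR (1.47, 1.47 and 0 CPM). In Casp1 KO normoxia it had 2 reads in each library (0.365, 0.581 and 0.483 CPM), and in Casp1 KO OIR 9, 5 and 5 (2.0, 1.09 and 1.03 CPM). All 3 Casp1 KO OIR libraries were above all 3 Casp1 KO normoxia libraries, whereas WT OIR replicate 3 had none and made the WT groups overlap. Groups did not overlap for 17.1% of genes between the conditions under the Casp1 KO label, and for 16.7% under the WT label, where no member was among them. Over both labels there were 33 reads in OIR and 10 in normoxia, a pooled ratio of 5.27 (2.54 to 12). Without WT normoxia replicate 2, which had none, the ratio was 2.66 (1.28 to 6.05). The difference did not pass over the spread between libraries (adjusted p = 0.527 by edgeR's quasi-likelihood test).

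**Figure D3:**
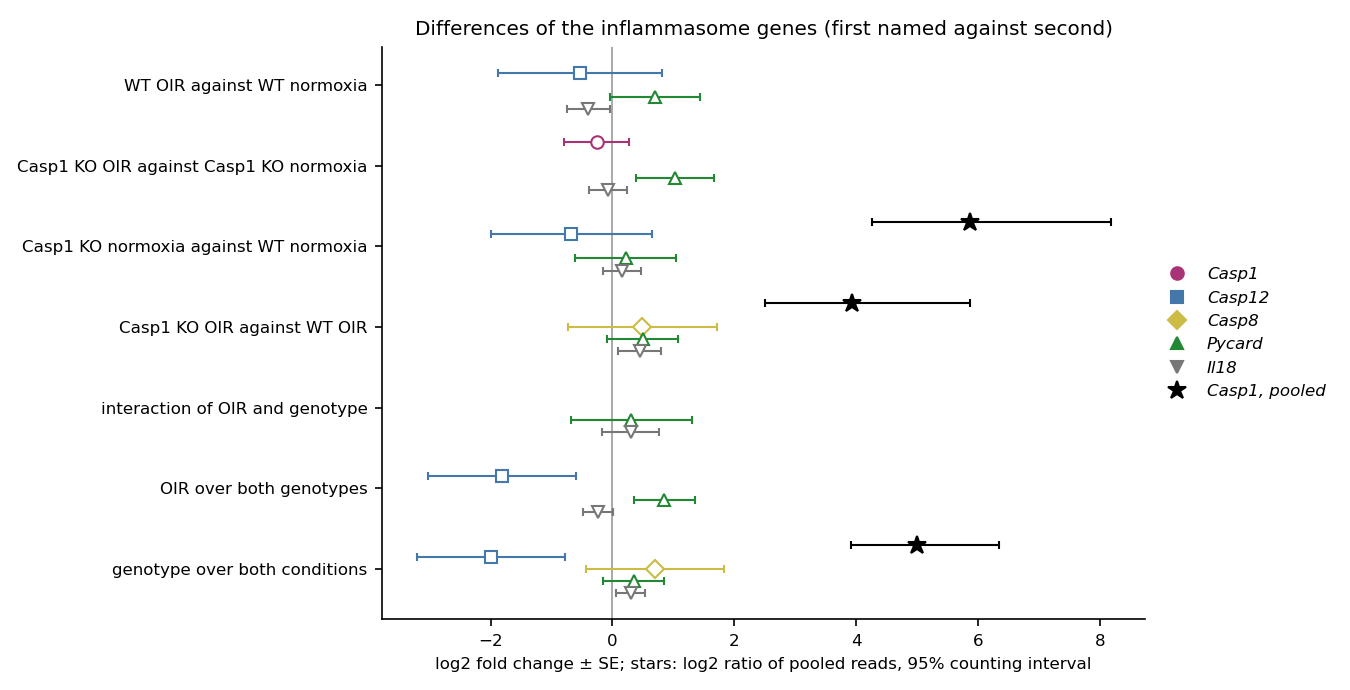
Log2 fold change ± SE (horizontal axis) from edgeR's quasi-likelihood fits for the 7 comparisons (vertical axis), for the members in comparisons where each group had a library above 3 reads, all open because no adjusted p was under 0.05, and log2 ratios of pooled reads with 95% counting intervals for Casp1 between labels (stars). The stars lie between 3.94 and 5.86, and the lowest open symbols are Casp12 at -1.81 for OIR and -1.99 for the label.

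Across the 7 comparisons, the members other than Casp1 had no adjusted p under 0.05 in the reported fits or in any alternative, the lowest being 0.196, for Pycard in OIR under the Casp1 KO label with Casp1 KO normoxia replicate 2 left out. No member passed in OIR under the WT label, where 3.88% of genes passed and 1.58% as higher, or in the interaction, where 1.13% passed and 0.604% with a positive sign.

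Markers of microglia, in which this pathway has been studied, moved with OIR. The summed level of 16 microglia and macrophage markers was 73.2 to 88.7 CPM in WT normoxia, 70.6 to 77.0 CPM in Casp1 KO normoxia, 124.3 to 133.2 CPM in WT OIR and 119.6 to 142.1 CPM in Casp1 KO OIR. The 2 labels thus overlapped within each condition. Over both labels 4 of the 16 markers rose in OIR and none fell, where 4.89% of all genes passed in either direction. The 4 were Aif1 and the complement genes C1qa, C1qb and C1qc, and none of the 16 passed between labels. Of 8 neutrophil markers, Ly6g, Mpo, Elane and Cxcr2 were at 0 in all 4 groups, and their summed level was at most 1.45 CPM in any library. In bulk retina fewer cells of a type and less RNA per cell cannot be told apart, and the part of these cells in the Casp1, Il1b, Casp8 and Pycard values was not tested.

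**Figure D4:**
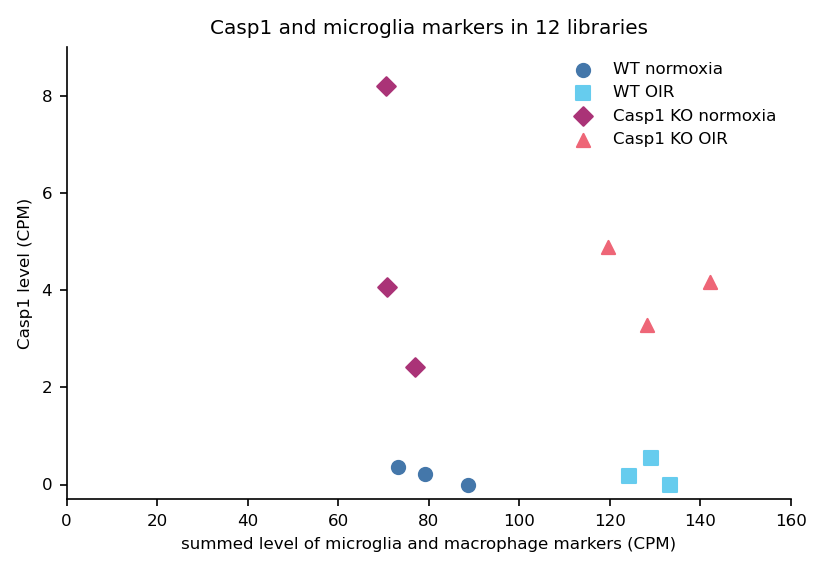
Casp1 level in CPM (vertical axis) against the summed level of 16 microglia and macrophage markers in CPM (horizontal axis), 1 point for each of the 12 libraries, with a symbol for each group. The markers separate OIR from normoxia under both labels, and Casp1 separates the labels.

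Some markers of lens and of other cell types differed between labels in OIR. The summed level of 7 lens crystallins was 1021 to 1101 CPM in Casp1 KO OIR and 313.7 to 737.6 CPM in WT OIR. All 7 passed between them, beside 0.575% of all genes. In normoxia the sums were 551.3 to 579.4 CPM labelled Casp1 KO and 566.9 to 603.2 CPM labelled WT, with none passing. For 8 markers of the retinal pigment epithelium the sums were 1119 to 1209 CPM in Casp1 KO OIR, 758.0 to 819.6 CPM in WT OIR, 741.3 to 778.8 CPM in Casp1 KO normoxia and 678.2 to 729.5 CPM in WT normoxia. Of these 8, 3 were higher under the Casp1 KO label in OIR and 1 in normoxia. Of the 7 Müller glia markers, 5 were lower under the Casp1 KO label in normoxia, where 1.04% of all genes passed, and 1 was higher in OIR. Of 5 red blood cell markers, 3 were lower in Casp1 KO OIR than in WT OIR, and of 8 endothelial markers 1 was lower. The part of these cells in the differences of Casp1 and Casp12 between labels was not tested.

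The other genes of the pathway were described with 6 lists of 84 genes, chosen with earlier results of these data known. Between labels, none of the 84 passed in normoxia, in OIR or over both conditions in the fits as reported, while Nfkbia passed in OIR in 3 of 16 alternatives. In OIR against normoxia, 1 of 78 tested passed under the WT label, 4 of 74 under the Casp1 KO label and 3 of 80 over both, shares of 1.28%, 5.41% and 3.75% beside 3.88%, 4.64% and 4.89% of all genes. These were 4 genes: Il1r1, Nfkbia, Chmp4b and Cycs.

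Il1r1, the signalling receptor for IL-1, was higher in OIR. In the libraries labelled Casp1 KO it went from 0.912, 1.16 and 2.90 CPM in normoxia to 5.78, 9.86 and 6.58 CPM in OIR. In those labelled WT it was 3.73, 6.54 and 5.65 CPM in normoxia and 12.2, 10.1 and 4.18 CPM in OIR. The groups were apart under the Casp1 KO label and overlapped under the WT label. The log2 fold change was 2.17 (SE 0.58, adjusted p = 0.00723) labelled Casp1 KO, 0.69 (SE 0.43, adjusted p = 0.520) labelled WT and 1.33 (SE 0.36, adjusted p = 0.00849) over both, by edgeR's quasi-likelihood test. The 2 labels were not shown to differ in this, with adjusted p = 0.487 for the interaction. Without Casp1 KO normoxia replicate 1 the adjusted p was 0.0676 labelled Casp1 KO and 0.0552 over both, and without Casp1 KO OIR replicate 2 it was 0.120 labelled Casp1 KO. Of the 12 genes of this list (ligands, receptors and inhibitors of IL-1 and IL-18), the other 11 did not pass, and the 6 with more than 3 reads in a library of each arm had a median log2 fold change of 1.08 in OIR beside 0.02 for 17913 such genes.

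Nfkbia, the NF-kB inhibitor that NF-kB itself induces, rose in OIR in the libraries labelled Casp1 KO, from 73.8, 91.8 and 94.4 CPM to 132.7, 146.9 and 152.8 CPM. In those labelled WT it was 91.3, 87.0 and 89.6 CPM in normoxia and 70.3, 87.1 and 142.7 CPM in OIR, with 1 library high and the other two within or below the normoxia range. The log2 fold change was 0.75 (SE 0.12, adjusted p = 1.26e-08) labelled Casp1 KO, 0.16 (SE 0.15, adjusted p = 0.669) labelled WT and 0.45 (SE 0.10, adjusted p = 0.000624) over both, by edgeR's quasi-likelihood test. Between the labels the difference of these changes was 0.57 (SE 0.19) with adjusted p = 0.146, and 0.92 (SE 0.18) with adjusted p = 0.000154 when the high library, WT OIR replicate 3, was left out. Within OIR, Nfkbia differed between labels by a log2 fold change of 0.52 (SE 0.15, adjusted p = 0.0555), and by 0.88 (SE 0.14, adjusted p = 1.10e-07) without that library. No other of the 18 priming genes passed, among them Tlr4, Myd88, Nfkb1, Rela and Tnfaip3, and the 15 with more than 3 reads in each arm had a median log2 fold change of 0.45 in OIR.

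Chmp4b, a subunit of the ESCRT-III complex that repairs membranes, was higher in Casp1 KO OIR at 548.7 ± 24.5 CPM (SD, n = 3) than in Casp1 KO normoxia at 421.9 ± 31 CPM, a log2 fold change of 0.39 (SE 0.08, adjusted p = 4.86e-05 by edgeR's quasi-likelihood test). In the libraries labelled WT it was 464.6 ± 47.1 CPM in OIR and 474.8 ± 51.1 CPM in normoxia, a log2 fold change of -0.04 (SE 0.12, adjusted p = 0.913), and the interaction had adjusted p = 0.185. No other of the 9 genes of gasdermins and membrane rupture passed.

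Cycs, cytochrome c, which activates the apoptosome once released from mitochondria, fell in OIR under both labels. It was 57.4, 62.8 and 45.9 CPM in WT normoxia and 34.5, 35.2 and 33.3 CPM in WT OIR. In the libraries labelled Casp1 KO it was 54.0, 57.5 and 54.8 CPM in normoxia and 31.6, 25.6 and 37.6 CPM in OIR. All 6 OIR libraries were below all 6 normoxia libraries, an arrangement, in either direction, of 2.53% of genes. The log2 fold change was -0.71 (SE 0.19, adjusted p = 0.00866) labelled WT, -0.79 (SE 0.17, adjusted p = 0.000345) labelled Casp1 KO and -0.75 (SE 0.13, adjusted p = 2.32e-06) over both, by edgeR's quasi-likelihood test. Labelled WT, it was -0.60 with adjusted p = 0.163 without WT normoxia replicate 2, and -0.69 with adjusted p = 0.0617 without WT normoxia replicate 1. No other gene of the apoptotic list that is reported here passed, nor did any of the 12 partners of caspase-8 or the 22 other sensors and regulators.

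**Figure D5:**
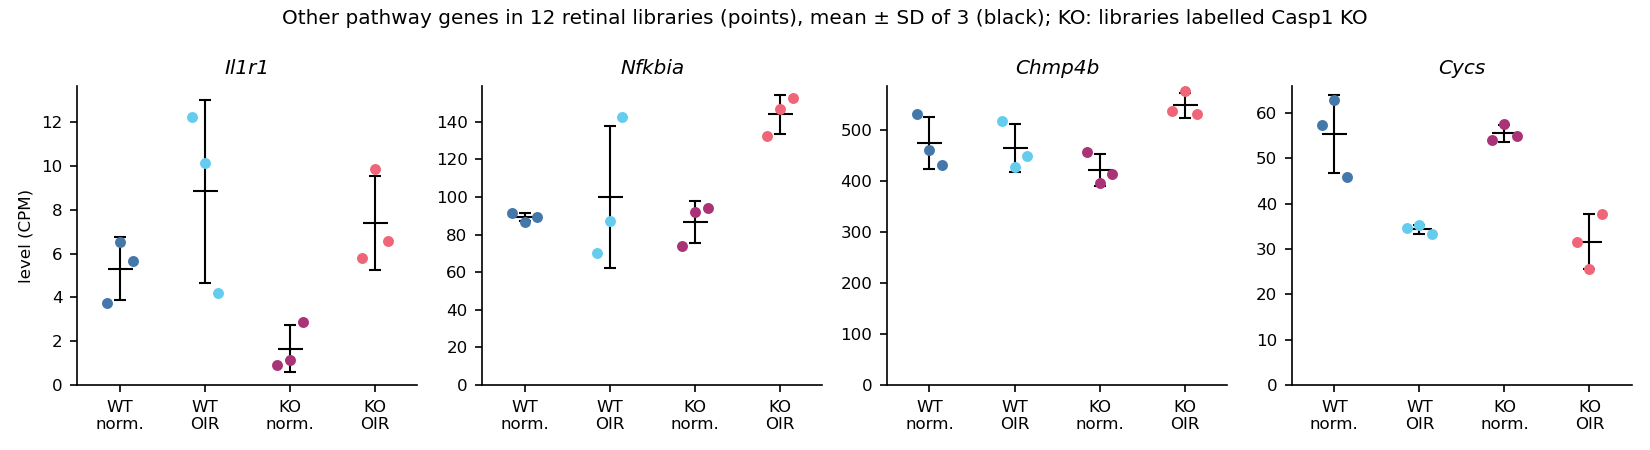
Level in CPM (vertical axis, a separate scale from 0 for each gene) of the 4 other pathway genes that passed between OIR and normoxia, in the 12 libraries by group, with points for libraries and black bars for the mean ± SD of 3. Cycs is lower in all 6 OIR libraries, and Il1r1, Nfkbia and Chmp4b are apart between OIR and normoxia only under the Casp1 KO label (KO on the axis).

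Of the other 22 sensors and regulators, 19 had more than 3 reads in a library and 1, Nlrp6, had no read. Aim2, the sensor of cytosolic DNA, was between 1.95 and 6.08 CPM. Nek7, a kinase that NLRP3 binds, was between 49.2 and 79.8 CPM, Txnip, a redox protein that binds NLRP3, was between 1.96 and 18.7 CPM, and the ATP-gated channel P2rx7 was at most 2.18 CPM. Of the receptors for IL-18, Il18r1 had 2 reads and Il18rap 3 reads over the 12 libraries, while Il18bp, the secreted inhibitor of IL-18, had 117. The median log2 fold change for OIR over both labels, among genes with more than 3 reads in each arm, was 0.26 for 13 sensors and regulators, 0.17 for 5 genes of gasdermins and membrane rupture, 0.12 for 10 apoptotic genes and 0.08 for 10 partners of caspase-8. Between labels the medians of the 6 lists lay between -0.08 and 0.06 beside -0.003 for all such genes.

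The genes most like these in level were found as Pearson's r of log2(CPM + 1) over the 12 libraries, among genes with at least 30 reads, as a description in which all points share their library's depth. For Casp1, Gm15446 came first with r = 0.915, followed by Zcrb1 with 0.867 and Apela with 0.864. Gm15446 had 35 reads, all in libraries labelled Casp1 KO and none in those labelled WT, and passed between labels with adjusted p = 0.0407 by edgeR's quasi-likelihood test, whereas Zcrb1 and Apela did not pass, with adjusted p of 0.749 and 0.0625. Casp1 itself divides by label, so genes chosen for likeness to it are chosen partly on the label. These adjusted p are therefore a description and no separate evidence. For Casp12 the first 3 were St18 (0.916), LOC108167618 (0.894) and Gm38872 (0.885). For Casp8 they were Cd46 (0.937), Angpt2 (0.936) and Itih5 (0.933). Casp4, with 11 reads, was below the 30 reads required.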

How the data were processed

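Per the labels and the study's methods, retinal RNA was extracted with TRIzol, made into QuantSeq 3′ FWD libraries and sequenced as single 75-base reads, and the authors aligned the reads to mm10 with STAR 2.7.5a and deposited raw counts per gene from htseq-count (HTSeq 0.6.1). The annotation, the strand setting and the treatment of multiply mapped reads are not given in the sources used here. The 12 columns were assigned to samples by the names in the labels.

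From these counts, CPM were computed with TMM factors, and genes with at least 1 read in the libraries fitted were tested with edgeR 4.0.16 (quasi-likelihood test, R 4.3.3) with Benjamini-Hochberg adjustment over all genes and a threshold of 0.05. Pairs of groups were fitted on their 6 libraries, and the interaction and the effects over both labels or conditions on all 12. The Casp1 level was also compared by a two-sided exact permutation test (scipy 1.17.1). A fitted fold is given only where a library of each group exceeded 3 reads. Where at least 1 group had such a library, ratios of pooled reads carry 95% counting intervals. A bound sets 3 reads for a group at 0 and takes the reads of the other group as exact, so it is no lower confidence limit. These ratios and bounds were recomputed with each library left out, an alternative chosen after seeing the data. All 10 members are named, with the other pathway genes that passed and the 3 genes most like a member. Alternatives were other scalings, filters, prior counts and tests (DESeq2 1.42.0 among them), a replicate block, 1 fit of all libraries, a thinned deepest library and each library left out. The members and lists were chosen with earlier results of these data known.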

Additional observations from a re-analysis of the deposited data

How the results depend on the processing

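The higher Casp1 level under the Casp1 KO label kept its direction and its exact permutation p at the smallest possible in all 15 alternatives, with differences of 3.55 to 4.71 CPM when 1 library was left out. The alternative with the deepest library thinned could not differ, since that library held 0 Casp1 reads. In normoxia the number of members passing was 1, and 0 to 1 with a library left out, being 0 without Casp1 KO normoxia replicate 1. In OIR it was 1 as reported, 0 with edgeR's own expression filter, 0 with a filter of at least 10 counts, 0 with the replicate block, and 0 to 1 with a library left out. The cause was not tested. Whether the replicate numbers pair the samples was not settled. Of 18 same-numbered pairs, 6 had correlated deviations over 0.1 (-0.114 to 0.292 over 5516 genes), and pairs of unlike number were not examined beside them. With the replicate block, 1 member passed in normoxia, 0 in OIR (Casp1, adjusted p = 0.0543 by edgeR's quasi-likelihood test) and 1 over both conditions.

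Among log2 fold changes that did not pass, some turned sign. Pycard between labels in normoxia (0.22) was -0.18 with the newer quasi-likelihood method, -0.15 with the replicate block, and -0.68 to 0.80 with a library left out. With a library left out, Casp12 in OIR under the WT label ran from -2.48 to 0.054, Casp1 in OIR under the Casp1 KO label from -0.58 to 0.36, Il18 there from -0.37 to 0.11, Il18 between labels in normoxia from -0.039 to 0.45, Casp8 between labels in OIR from -0.084 to 0.93, Pycard there from -0.22 to 0.96, and Pycard in the interaction from -0.42 to 1.21.

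Over all genes, calls ranged from 545 to 1130 for WT OIR (886 as reported), 642 to 1099 for Casp1 KO OIR against Casp1 KO normoxia (1038), 109 to 444 between labels in normoxia (233), 16 to 815 between labels in OIR (131), 139 to 597 for the interaction (277), and 18 to 246 between labels over both conditions (82), the highest of the last 3 without WT OIR replicate 3. At this depth, members with 0 to 3 reads a library could not be compared.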
